A study of Musca domestica with 24 samples.

Results

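Transcripts of the chaperonin CCT subunits were followed in the head and abdomen of individual house flies (Musca domestica) after RNA interference (RNAi) against the sex determination gene Md-tra or against GFP. Every row named CCT-delta, CCT-eta or CCT-zeta was taken from both tissue tables, which gave 3 of the 16540 genes listed, and the other subunits of the complex were not looked for under identifiers without a name. CCT-delta (GeneID 101889634) was assigned to Muller element B, CCT-eta (GeneID 101887278) to element E and CCT-zeta (GeneID 101899826) to element A, where a Muller element is a chromosome arm conserved among flies. All 3 genes passed the filter on low values in both tissues.

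CCT, also called TRiC, is the ATP-driven chaperonin of the eukaryotic cytosol. Back-to-back rings of related but distinct subunits enclose newly made proteins, above all actin and tubulin, until they have folded. The subunits share no single role: in budding yeast, CCT-delta lies on the side of the ring that binds ATP strongly and CCT-zeta on the opposite side, and mammals carry an additional testis copy of CCT-zeta. Eggs and early embryos of flies are built with large stores of tubulin and actin laid down by the mother, and sperm tails are built around tubulin.

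All flies came from the IIIM (3-6) strain, and double-stranded RNA (dsRNA) was given against GFP, a gene the fly lacks, or against Md-tra, the house fly transformer gene that female development needs. Each tissue had 4 groups of 3 flies: females given GFP dsRNA, males given GFP dsRNA, and groups N and SR, which were both given Md-tra dsRNA and were both phenotypic males. Sample titles make N genotypic females that became males and SR genotypic males, whereas the headers of the authors' comparisons treat SR as the sex-reversed flies and N as the normal males. The letters N and SR are used here, and both readings are given where they matter. All 4 groups carry dsRNA, so no fly was untreated. The ages of the flies and the tissue within the head or abdomen were not given in the labels used here, and the labels call the 3 flies of a group biological replicates.

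Values are normalized counts, which are read counts divided by the authors' scaling factor for each library, and can be compared within a tissue only. The depth recovered from the tables ran from 2689265 to 77407229 reads in abdomens and from 12080603 to 79454339 in heads. Depth did not overlap between the control sexes, in opposite directions by tissue. GFP female abdomens had 56719614 to 77407229 reads, against 20916287 to 31364368 in GFP males. Heads had 27872130 to 35498286 reads in GFP females and 57096789 to 79454339 in GFP males. Depth and sex thus cannot be told apart in comparisons of the control sexes. The N abdomens were the shallowest group, and the lowest count behind any subunit value was 247 reads, for CCT-delta in the N abdomen of replicate 3. The SR head of replicate 2 stood apart, with a median Pearson correlation of 0.83 to the other heads against at least 0.87 for the rest. The female-germline marker bcd had 2225 to 3315 normalized counts in GFP female abdomens, 0 in all GFP male and SR abdomens, 0 to 5.07 in N abdomens and at most 2.78 in heads. Only 7 of 31 listed cell type markers carried a matching symbol, and none of those for muscle or testis did, so the makeup of the tissues could be checked only in part. The knockdown target itself is not analysed here.

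In abdomens, transcripts of all 3 subunits were most abundant in GFP females, by 1.66-fold to 2.14-fold over GFP males, and the means of both Md-tra RNAi groups lay nearer to GFP males than to GFP females. CCT-zeta had the largest difference of the 3 between the control sexes. None of the 3 subunits passed the test in any comparison among the 3 groups of phenotypic males.

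CCT-delta had 4184, 4929 and 4559 normalized counts in the abdomens of GFP females 1, 2 and 3. The GFP male abdomens held 2266, 2591 and 3078 normalized counts. The N abdomens held 3572, 2582 and 1919.7, and the SR abdomens 2285, 2422 and 2619. Every GFP female thus lay above every fly of the other groups, while the 3 male groups overlapped one another. The group means were 4557 ± 373 (SD, n = 3) in GFP females, 2645 ± 408 in GFP males, 2691 ± 832 in N and 2442 ± 168 in SR. The N group was the most variable, with an SD of 30.9% of its mean, and its highest and lowest flies were its shallow libraries, replicates 1 and 3.

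CCT-eta, a subunit of the same rings, had 5893, 6515 and 6351 normalized counts in GFP female abdomens. It had 3408, 3545 and 4409 in GFP male abdomens. The N abdomens held 2891, 3382 and 2883 normalized counts, and the SR abdomens 3303, 3594 and 3948. GFP females again lay above all other flies. At the authors' scaling all 3 N flies lay below all 3 GFP males, with 3382 against 3408 at the closest. This was the only such separation of a subunit among the male groups of the abdomen. The means were 6253 ± 322 (SD, n = 3) in GFP females, 3787 ± 542 in GFP males, 3052 ± 286 in N and 3615 ± 323 in SR.

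CCT-zeta, the subunit whose gene lies on element A with the male determiner of this strain, had 10006, 11903 and 10108 normalized counts in GFP female abdomens. It had 4539, 4327 and 6276 in GFP male abdomens. The N abdomens held 6259.5, 5871 and 5223 normalized counts, and the SR abdomens 5667, 5018 and 7386. The GFP females lay above all other flies by a wide gap, and the 3 male groups overlapped. The means were 10672 ± 1067 (SD, n = 3), 5047 ± 1069, 5784 ± 524 and 6023 ± 1223 in GFP females, GFP males, N and SR.

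**Figure D1:**
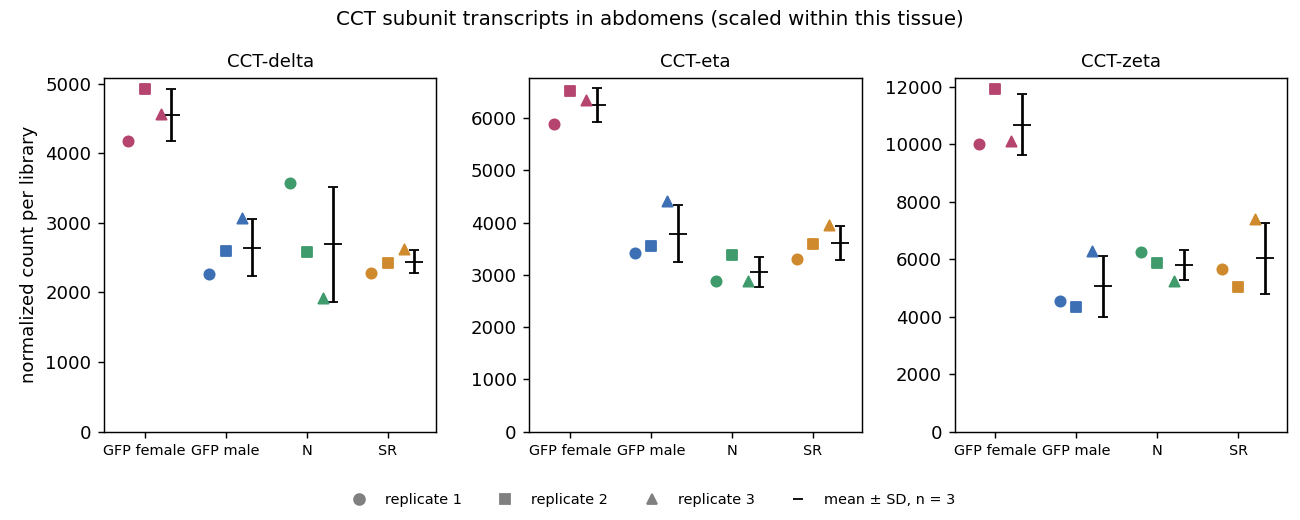
Normalized counts of each CCT subunit in the 12 abdomen libraries (y axis, linear from 0) by group (x axis), with 1 point per fly, shaped by replicate number, and bars for the mean ± SD (n = 3). The 3 GFP female points lie above all other points for each subunit, for example 10006 to 11903 normalized counts of CCT-zeta against 4327 to 7386 in the other groups.

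The question of the control comparison was how the sexes differ. Compared with GFP males, GFP female abdomens held more of all 3 transcripts, with log2 differences of 0.79 (SE 0.21, adjusted p = 0.00605) for CCT-delta, 0.73 (SE 0.15, adjusted p = 0.00101) for CCT-eta and 1.10 (SE 0.20, adjusted p = 0.000444) for CCT-zeta. These tests, and those below, are from limma, fitted to log2(normalized count + 1) of all genes kept in a tissue, with Benjamini-Hochberg adjustment over all of them and a threshold of 0.05. The 95% confidence intervals of the log2 differences were 0.32 to 1.27, 0.40 to 1.06 and 0.66 to 1.53. All 3 subunits were called higher, as were 33.4% of the 12537 genes tested, and all 3 were higher without overlap between the sexes, as were 37.1% of the genes. Of all tested genes, 67.0%, 66.0% and 71.9% had a lower female-minus-male difference than CCT-delta, CCT-eta and CCT-zeta. Many genes thus had a larger difference in the same direction.

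The scaling of the libraries set the size of this difference but not its direction. With the authors' scaling the median gene was 0.61 log2 units lower in GFP females, while the median of the 3 subunits was 0.79. With TMM scaling the median of all genes was −0.10 and that of the subunits 1.32, and with CPM, the reads per 1000000 of the library total, 0.13 and 1.56. All 3 subunits were called higher under each of the 16 alternatives, over which the log2 difference ran from 0.69 to 1.56 for CCT-delta, from 0.66 to 1.50 for CCT-eta and from 0.99 to 1.86 for CCT-zeta. In whole abdomens, fewer cells of a type and less RNA per cell cannot be told apart.

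Md-tra RNAi flies of either code had less of each transcript than GFP females. In N abdomens CCT-delta fell by 0.80 on the log2 scale (SE 0.21, adjusted p = 0.00561, limma), CCT-eta fell by 1.04 (SE 0.15, adjusted p = 8.5e-05) and CCT-zeta fell by 0.88 (SE 0.20, adjusted p = 0.00179). All 3 were called lower, against 34.1% of tested genes, and all 3 were without overlap, against 35.6%. In SR abdomens CCT-delta fell by 0.90 (SE 0.21, adjusted p = 0.003, limma), CCT-eta fell by 0.79 (SE 0.15, adjusted p = 0.000624) and CCT-zeta fell by 0.84 (SE 0.20, adjusted p = 0.00263). All 3 were again called lower, against 32.8% of tested genes, and without overlap, against 35.5%. Here too the scaling set the size. In N the median of the 3 subunits was −0.88 with the authors' scaling, −1.42 with TMM and −1.40 with CPM, while the median of all genes was 0.53, 0.02 and 0.04. In SR the subunits' median was −0.84, −1.34 and −1.50, and that of all genes 0.68, 0.20 and 0.05. These comparisons and the one between control sexes share the same 3 GFP female libraries and are not independent of one another. The authors' deposited table gives log2 fold changes of −0.90, −0.79 and −0.83 for CCT-delta, CCT-eta and CCT-zeta under the header that sets sex-reversed males against GFP females.

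With both shallow N abdomens left out, a setting chosen after seeing the data, all 3 subunits were still called lower in N than in GFP females. Leaving out any 1 fly also kept all 3 calls in the N and SR comparisons with GFP females.

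Among abdomens of phenotypic males no subunit passed the test. SR minus GFP males was −0.11 for CCT-delta, −0.06 for CCT-eta and 0.26 for CCT-zeta on the log2 scale, with 95% confidence intervals of −0.58 to 0.37, −0.39 to 0.27 and −0.18 to 0.69. This was 0 of 3 called by limma and 0 of 3 with an unadjusted p under 0.05, against 0.160% of all genes called in either direction, and edgeR and DESeq2 also called 0. N minus GFP males was −0.01 for CCT-delta, −0.31 for CCT-eta and 0.21 for CCT-zeta, with intervals of −0.49 to 0.47, −0.63 to 0.02 and −0.22 to 0.65. Here too 0 of 3 were called by limma, with 0 at an unadjusted p under 0.05, against 8.88% of all genes. Both edgeR and DESeq2 called 0, and 1 subunit had an unadjusted p under 0.05 by DESeq2, a level at which the share of all genes was not counted. CCT-eta, lower in every N fly than in every GFP male, had an adjusted p of 0.211 by limma, and 15.5% of tested genes separated in this direction. In CPM this separation was lost, with 124 to 137 in N abdomens against 114 to 159 in GFP male abdomens.

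N minus SR, the contrast within the Md-tra RNAi flies, was 0.10 for CCT-delta, −0.24 for CCT-eta and −0.04 for CCT-zeta, with intervals of −0.38 to 0.57, −0.57 to 0.08 and −0.48 to 0.39. None was called by limma, edgeR or DESeq2, and limma gave 0 with an unadjusted p under 0.05, against 14.6% of all genes called in either direction. The intervals leave room for differences of up to about 0.6 log2 units either way, so equal levels are not shown.

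**Figure D2:**
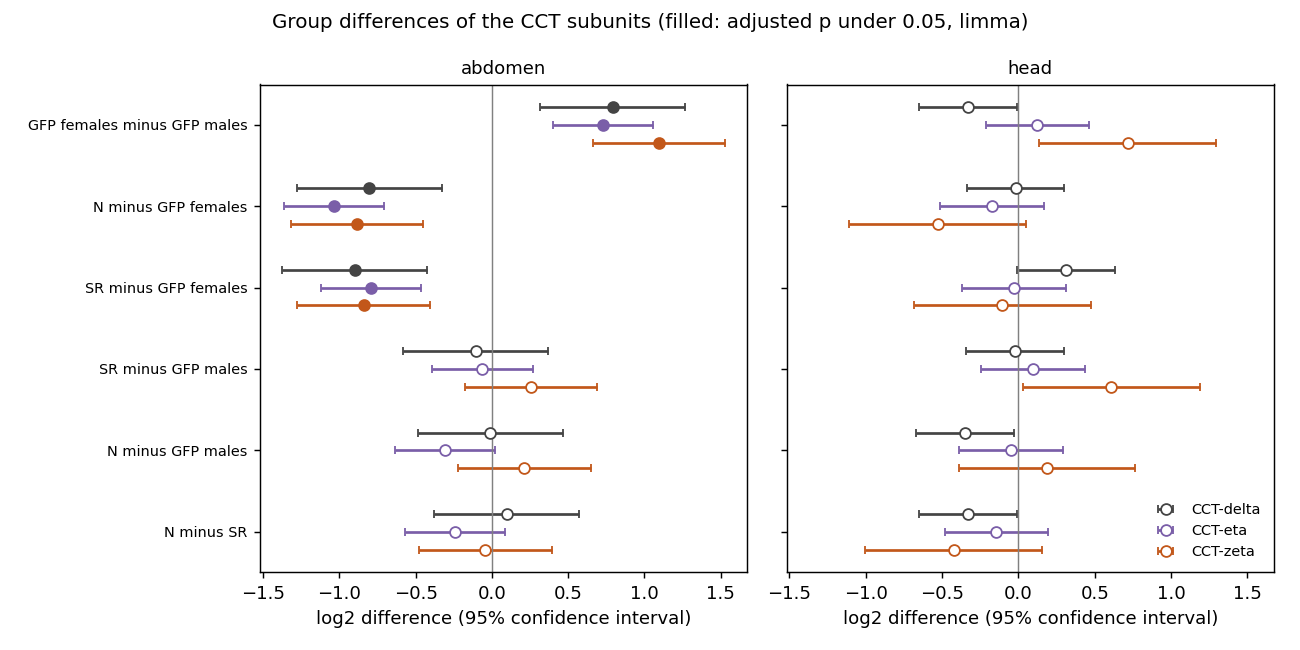
Log2 differences of the 3 subunits in 6 comparisons (y axis) for abdomens and heads, with 95% confidence intervals from limma (x axis, log2 units), where filled points passed an adjusted p of 0.05 and open points did not. In abdomens the 9 filled points are those of the comparisons with GFP females, from −1.04 to 1.10, while all head points are open.

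Whether Md-tra RNAi acted differently in the genotypic sexes was tested as an interaction, for each reading of the codes. By the sample titles, N minus GFP females, less SR minus GFP males, came to −0.98 log2 units for CCT-eta (SE 0.21, adjusted p = 0.00201, limma) and −1.14 for CCT-zeta (SE 0.28, adjusted p = 0.0042). CCT-delta had −0.70 (SE 0.30, adjusted p = 0.0628) and was not called, but was with TMM scaling, where it was −1.25 (adjusted p = 0.00369). By the authors' headers, SR minus GFP females, less N minus GFP males, came to −0.89 for CCT-delta (SE 0.30, adjusted p = 0.0256) and −1.05 for CCT-zeta (SE 0.28, adjusted p = 0.00735). CCT-eta had −0.49 (SE 0.21, adjusted p = 0.0633) and was called with TMM scaling, where it was −0.98 (adjusted p = 0.00253). Each reading thus gave 2 of 3 subunits called in the negative direction, against 30.0% of genes by the titles and 27.1% by the headers. All 6 values were negative. Each interaction is GFP males minus GFP females, with N minus SR added by the titles or taken away by the headers. Every value thus contains the control sex difference, and the readings are not independent. No subunit was called for N minus SR, but equal levels are not shown. For CCT-eta N minus SR was −0.24 (SE 0.15), which set its interaction at −0.98 by the titles and −0.49 by the headers. Without GFP female 2, GFP female 3, GFP male 1 or SR 1, CCT-delta lost its call by the headers, with adjusted p-values of 0.0622, 0.0518, 0.062 and 0.0533.

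Other chaperones with a symbol did not share one pattern in abdomens. Of the 3 besides CCT, prohibitin, which forms a scaffold in the inner mitochondrial membrane, was higher in GFP females than in GFP males by 0.96 log2 units (SE 0.27, adjusted p = 0.0067, limma). Its group means were 4004 ± 340 normalized counts (SD, n = 3) in GFP females, 2050.4 ± 44.6 in GFP males, 1243 ± 474 in N and 2936 ± 343 in SR, and N was lower than SR with an adjusted p of 0.0142. The small heat shock gene hsp20 was lower in GFP females than in GFP males by −5.62 log2 units (SE 0.57, adjusted p = 9.05e-06). HSP70, whose product binds unfolded chains and can pass them to CCT, had a difference of −0.53 (SE 0.24, adjusted p = 0.0605). Of these 3 chaperones, 1 was called higher in GFP females, as were 33.4% of all genes tested, and 1 was called lower. Their median difference was −0.53, against −0.61 for all genes tested. Of those 12537 genes, 9737 were called in either direction, 4188 of them higher.

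Markers of other cell types differed along the same contrast as CCT. Compared with GFP males, 1 of 7 markers was higher in GFP female abdomens, bcd, and 5 were lower, namely attacin, diptericin, lysozyme, para-like and IR25a. Among the 12537 genes tested, 9737 were called in either direction, 4188 of them higher in GFP females. The summed level of the 3 immune markers was 23.9 to 56.4 normalized counts in GFP females, against 1375 to 11932 in GFP males, and it reached 707 to 14367 in N flies and 2019 to 4228 in SR flies. The nervous system markers, of which 2 were matched, gave sums of 25.5 to 448 for GFP females, against 7099 to 12391 for GFP males. The sums were 4669 to 11044 for N flies and 12247 to 16432 for SR flies. Nearly all of each sum was para-like, whose mean in GFP males was 10485 against 75.6 for IR25a. The yolk protein gene yp3 ranged from 21.1 to 15574 among GFP females alone. It ran from 273 to 1975 in GFP males, from 669 to 3173 in N and from 6253 to 24021 in SR. All SR abdomens thus lay above all GFP male and N abdomens. By limma yp3 was called higher in SR than in GFP females (adjusted p = 0.0439), but not than in GFP males (adjusted p = 0.811). The part of these differences in the CCT values was not tested.

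In heads the subunits did not move together, and no comparison gave a call by the main test. At the authors' scaling CCT-delta was lower in GFP females than in GFP males in every fly, whereas CCT-zeta was higher in every fly. The CCT-eta values overlapped, and neither separation passed the adjusted threshold. In CPM the CCT-delta separation held, but CCT-zeta overlapped, at 117 to 223 in GFP females against 112 to 142 in GFP males. CCT-eta was then lower in every GFP female, at 143 to 154 against 155 to 178.

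CCT-delta had 1856, 2161 and 1679 normalized counts in the heads of GFP females and 2302, 2576 and 2263 in those of GFP males. The N heads held 1771, 1918 and 1907, and the SR heads 2158, 2704 and 2201. GFP males lay above all GFP females and all N flies, and SR flies lay above all N flies. The means were 1899 ± 244 (SD, n = 3) in GFP females, 2380.4 ± 170.5 in GFP males, 1865 ± 82.2 in N and 2354 ± 304 in SR. The order of the means set GFP males and SR above GFP females and N, and within each of these pairs the flies overlapped.

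CCT-eta had 5621, 5927 and 4713 normalized counts in GFP female heads and 4684, 4917 and 5268 in GFP male heads. The N heads held 4733, 4713 and 4911, and the SR heads 4571, 6418 and 5044. All 4 groups overlapped, and the means ran only from 4786 ± 109 (SD, n = 3) in N to 5420.4 ± 632 in GFP females. The highest head was the SR fly of replicate 2, the library that stood apart.

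CCT-zeta had 4417, 8582 and 6039 normalized counts in GFP female heads and 3384, 3617 and 4224 in GFP male heads. The N heads held 4787, 4219.5 and 3775, and the SR heads 4501, 7804 and 5235. All GFP female and all SR heads lay above all GFP male heads, and the spread within these higher groups was wide. The means were 6346 ± 2100 (SD, n = 3; 33.1% of the mean) in GFP females, 3742 ± 434 in GFP males, 4261 ± 507 in N and 5847 ± 1734 in SR. GFP female 1, the lowest of its group, is the library made from 1.2 µg of RNA instead of 1.5 µg. For CCT-delta and CCT-eta this library lay between the other flies of its group, and the part of the RNA input was not tested.

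**Figure D3:**
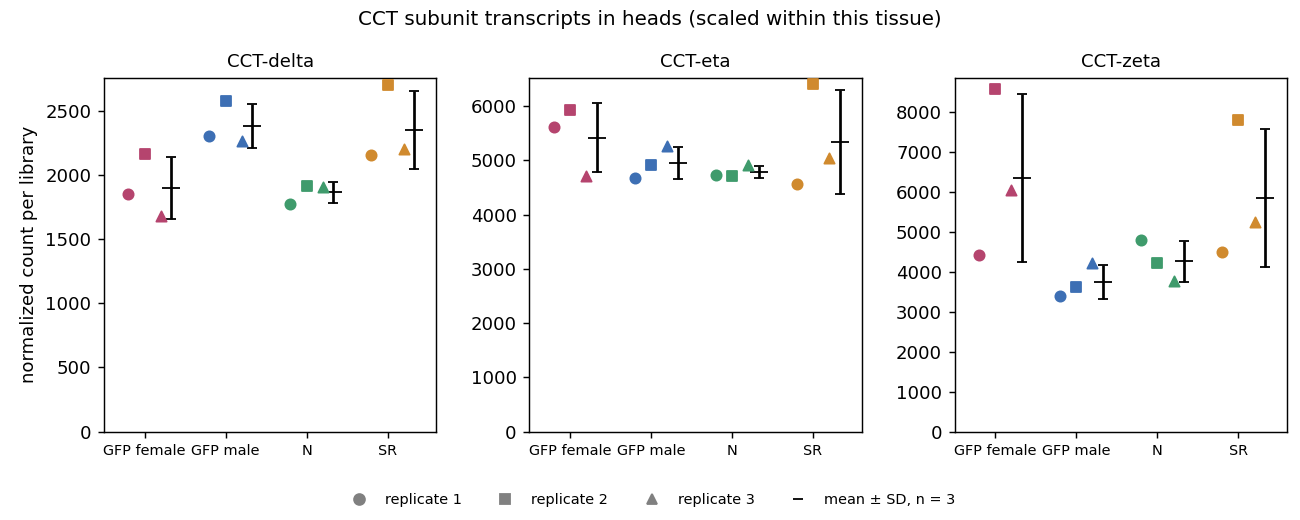
Normalized counts of each CCT subunit in the 12 head libraries (y axis, linear from 0) by group (x axis), with 1 point per fly, shaped by replicate number, and bars for the mean ± SD (n = 3). CCT-delta is lower and CCT-zeta higher in GFP females than in GFP males without overlap, while the 4 groups overlap for CCT-eta.

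Between the control sexes the head differences, females minus males, were −0.33 log2 units for CCT-delta (SE 0.14, unadjusted p = 0.0435, adjusted p = 0.112, limma), 0.12 for CCT-eta (SE 0.15, adjusted p = 0.577) and 0.72 for CCT-zeta (SE 0.26, unadjusted p = 0.0202, adjusted p = 0.0671). This was 0 of 3 called, against 25.6% of the 12237 genes tested. An unadjusted p under 0.05 was reached by 2 of 3, and the share of all genes at that level was not counted. Without overlap, 23.5% of genes were higher and 26.2% lower in GFP females. The head calls depended on the method. DESeq2 called CCT-zeta (adjusted p = 0.0297) and edgeR called 0 of 3. CPM scaling called CCT-delta at −0.63 (adjusted p = 0.0155), but it also moved the median of all genes from −0.02 to −0.31 and CCT-eta to −0.17. Without GFP female 1 the CCT-zeta difference was 0.95 (adjusted p = 0.0206), and its lowest value over the 16 alternatives was 0.42. The authors' deposited table, which sets males over females, gives 0.33 with an adjusted p of 0.0441 for CCT-delta and −0.76 with 0.0131 for CCT-zeta.

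No subunit passed the main test between Md-tra RNAi heads and GFP female heads. N minus GFP females was −0.02, −0.17 and −0.53 log2 units for CCT-delta, CCT-eta and CCT-zeta, with 0 of 3 called by limma, 0 with an unadjusted p under 0.05 and 0.907% of all genes called. SR minus GFP females was 0.31, −0.03 and −0.11, with 0 of 3 called, 0 with an unadjusted p under 0.05 and 0.163% of all genes called. The 95% confidence intervals were −1.11 to 0.05 for CCT-zeta in N and −0.01 to 0.63 for CCT-delta in SR, so differences of these sizes could not be told from none with 3 flies a group. Neither edgeR nor DESeq2 called a subunit in these comparisons.

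Against GFP male heads, SR heads had a CCT-zeta difference of 0.61 log2 units (SE 0.26, unadjusted p = 0.0408, adjusted p = 0.180, limma), without overlap, as 17.4% of genes in this direction. Of the 3 subunits 0 were called, against 4.49% of genes. N heads had a CCT-delta difference of −0.35 from GFP males (SE 0.14, unadjusted p = 0.0347, adjusted p = 0.134), without overlap, as 24.1% of genes. Again 0 of 3 were called, against 11.7% of genes, while the authors' deposited table gives −0.36 with an adjusted p of 0.0397. N minus SR was −0.33 for CCT-delta (SE 0.14, unadjusted p = 0.0447, adjusted p = 0.605), without overlap, as 6.42% of genes, and 0 of 3 were called, against 0.302% of genes. In each of these 3 comparisons 1 subunit had an unadjusted p under 0.05, and edgeR and DESeq2 called 0. The share of all genes at that unadjusted level was not counted, so these counts are not read as results.

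The head interactions were not called either, with 0 of 3 subunits by the titles, against 2.42% of genes, and 0 of 3 by the headers, against 11.1%. By the titles CCT-zeta had −1.14 log2 units (SE 0.37, unadjusted p = 0.0111, adjusted p = 0.128, limma), and DESeq2 called it with −1.22 (adjusted p = 0.0372). By the headers CCT-delta had 0.66 (SE 0.20, unadjusted p = 0.00845, adjusted p = 0.0601), and DESeq2 called it with 0.66 (adjusted p = 0.013). No subunit was called by edgeR in either reading. Between GFP female and GFP male heads the other chaperones with a symbol were not called, with log2 differences of −0.86 for hsp20 (adjusted p = 0.231), 0.72 for HSP70 (adjusted p = 0.118) and −0.08 for prohibitin (adjusted p = 0.71). Along that contrast yp3 was higher in GFP females (adjusted p = 0.0351) and para-like was lower (adjusted p = 0.0116), and their part in the CCT values was not tested. Heads held 2141 to 192977 normalized counts of yp3 in GFP females and 301 to 1207 in GFP males. The range was 162 to 657 in N and 1657 to 45604 in SR.

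Because subunits are made for 1 complex, their ratio within a library was followed too, which does not depend on how libraries were scaled. The ratio of normalized counts carries the unequal lengths of the transcripts, so only its differences between groups are read. All 4 groups of a tissue were compared at once by an exact permutation test over 15400 arrangements of the libraries, one-sided by construction, in a family of 6 tests adjusted by Benjamini-Hochberg. The smallest p this test can give is 6.5e-05, whereas 3 flies against 3 cannot go below 0.1.

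In heads the balance between subunits differed between groups. The ratio of CCT-eta to CCT-delta was 3.03, 2.74 and 2.81 in GFP females, 2.03, 1.91 and 2.33 in GFP males, 2.67, 2.46 and 2.58 in N and 2.12, 2.37 and 2.29 in SR (exact permutation p = 0.00195, adjusted p = 0.0117). GFP females lay above all others and N above all of GFP males and SR. The ratio of CCT-zeta to CCT-delta was 2.38, 3.97 and 3.60 in GFP females, 1.47, 1.40 and 1.87 in GFP males, 2.70, 2.20 and 1.98 in N and 2.09, 2.89 and 2.38 in SR (exact permutation p = 0.00903, adjusted p = 0.0271). GFP males lay below every fly of the other groups, and the remaining groups overlapped. The ratio of CCT-zeta to CCT-eta averaged 1.17 ± 0.34 (SD, n = 3) in GFP females, 0.753 ± 0.0425 in GFP males, 0.892 ± 0.121 in N and 1.08 ± 0.12 in SR, and did not pass the test (exact permutation p = 0.0932, adjusted p = 0.14).

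In abdomens 1 of 3 ratios passed the test. The ratio of CCT-zeta to CCT-eta was 1.70, 1.83 and 1.59 in GFP females, 1.33, 1.22 and 1.42 in GFP males, 2.17, 1.74 and 1.81 in N and 1.71, 1.40 and 1.87 in SR (exact permutation p = 0.0247, adjusted p = 0.0494). GFP males lay below all GFP females and all N flies, and SR overlapped with every group. The ratio of CCT-zeta to CCT-delta averaged 2.34 ± 0.11 (SD, n = 3) in GFP females, 1.90 ± 0.20 in GFP males, 2.25 ± 0.48 in N and 2.46 ± 0.37 in SR, and did not pass (exact permutation p = 0.252, adjusted p = 0.278). The ratio of CCT-eta to CCT-delta averaged 1.37 ± 0.05, 1.43 ± 0.07, 1.21 ± 0.36 and 1.48 ± 0.03 in the same order (exact permutation p = 0.278, adjusted p = 0.278). Most of its spread came from N abdomen 1, where it was 0.809 while all other abdomens lay between 1.31 and 1.51.

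Each of the 3 called ratios missed the adjusted threshold when the flies of some replicate number were left out. The abdominal CCT-zeta to CCT-eta ratio had adjusted p-values of 0.423, 0.143 and 0.143 without replicates 1, 2 and 3. In heads the CCT-zeta to CCT-delta ratio had 0.381 and 0.143 without replicates 2 and 3, and the CCT-eta to CCT-delta ratio had 0.143 and 0.0571. With 2 flies a group the smallest unadjusted p is 0.00952, and the CCT-eta to CCT-delta ratio without replicate 3 was at that limit, with a gap between group means of 0.55 log2 units against 0.46 with all flies. A ratio at that limit can pass only where other ratios of its family also have low p-values. Without replicate 1 the head ratio of CCT-zeta to CCT-delta had that same exact permutation p, with an adjusted p of 0.0381.

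**Figure D4:**
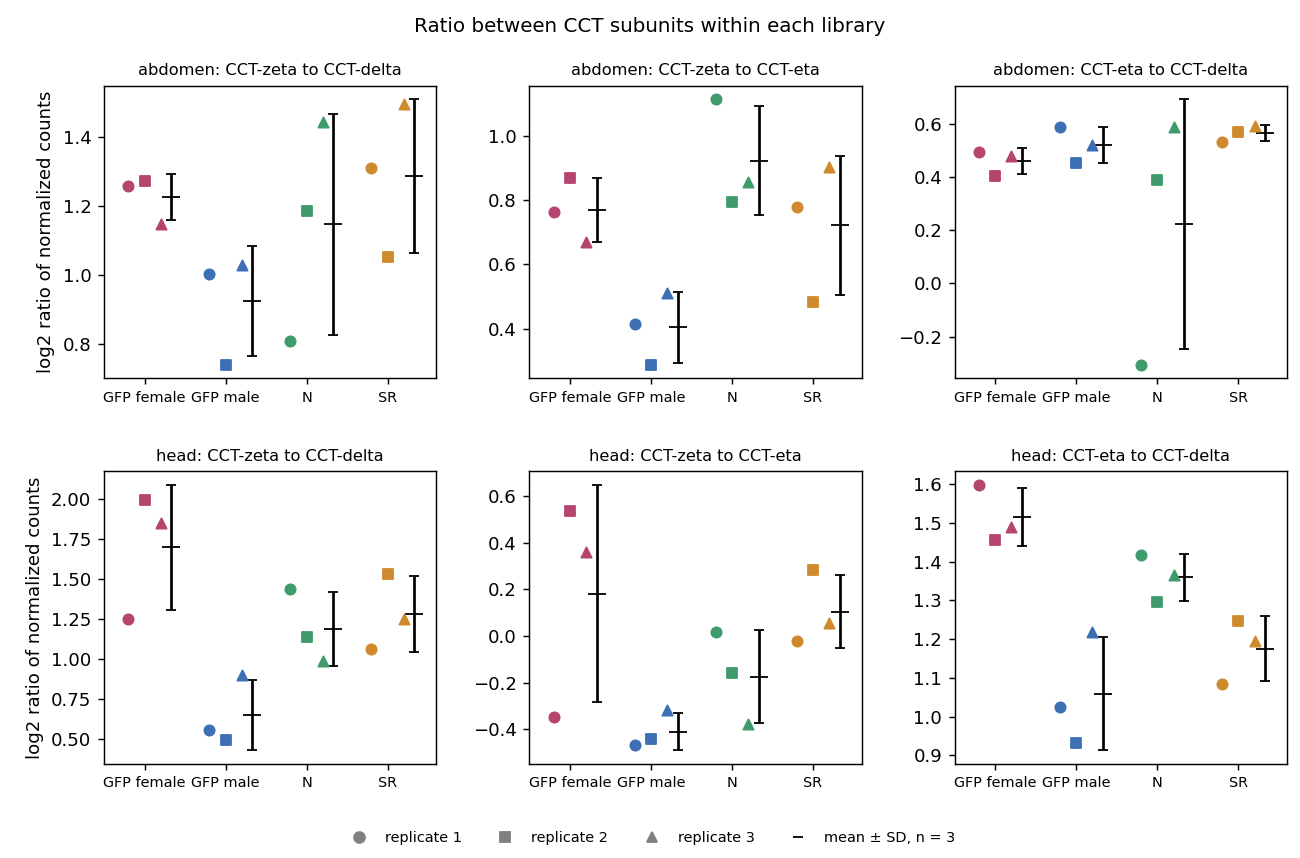
Log2 ratio of normalized counts between subunits within each library (y axis) by group (x axis), in abdomens (top) and heads (bottom), with 1 point per fly, shaped by replicate number, and bars for the mean ± SD (n = 3). The y axes do not start at 0. Group means of the head ratios to CCT-delta are highest in GFP females and lowest in GFP males, while some single flies of different groups overlap.

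CPM values set both tissues on one scale, with no test, since the tables were made separately. CCT-delta had 282 ± 19.2 CPM (SD, n = 3) in GFP female abdomens against 52.2 ± 3.61 in their heads, a ratio of 5.39. In GFP males it had 96.5 ± 18.7 in abdomens against 80.8 ± 7.75 in heads, a ratio of 1.19, and the flies overlapped. The ratio was 2.01 in N and 1.35 in SR. CCT-eta was 2.59 times as high in abdomens as in heads of GFP females, but 0.819, 0.88 and 0.888 times in GFP males, N and SR, and in GFP males the flies of the tissues overlapped, at 114 to 159 CPM in abdomens and 155 to 178 in heads. CCT-zeta was 3.77 times as high in abdomens as in heads of GFP females, and 1.44, 1.90 and 1.37 times in GFP males, N and SR. The abdomen exceeded the head most in GFP females for each of the 3 subunits. CPM values move with the few most abundant transcripts of a library, so these ratios describe shares of the reads.

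**Figure D5:**
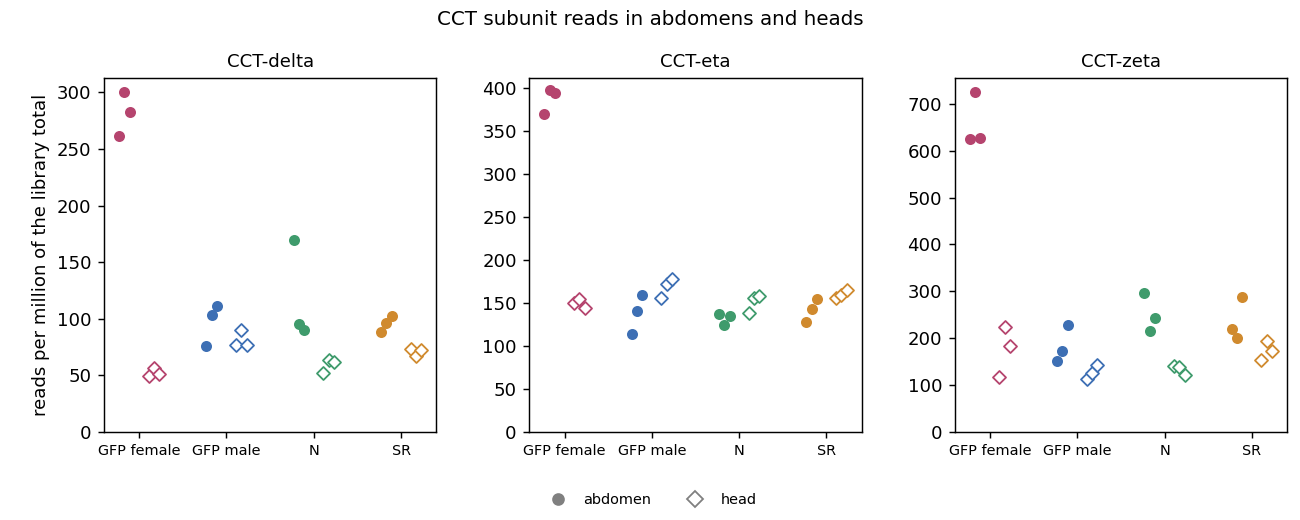
CPM, the reads per 1000000 of the library total (y axis, linear from 0), of each subunit by group (x axis), in abdomens (filled circles) and heads (open diamonds), with 1 point per fly. GFP female abdomens stand highest for each subunit, at a mean of 282 for CCT-delta, 387 for CCT-eta and 659 for CCT-zeta.

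Across the 12 abdomen libraries, log2 levels of the subunits correlated with Pearson's r of 0.84 for CCT-delta with CCT-eta, 0.88 for CCT-delta with CCT-zeta and 0.87 for CCT-eta with CCT-zeta. After group means were taken away these were 0.43, 0.63 and 0.73. Across the 12 heads r was 0.44, 0.08 and 0.68 in the same order, and 0.80, 0.59 and 0.62 after group means were taken away. At the authors' scaling, flies of a head group with more of one subunit thus tended to have more of the others, while the groups differed in balance. In CPM, GFP female heads ranked alike for CCT-delta and CCT-zeta, and GFP male and N heads ranked neither alike nor in reverse. The SR heads ranked in reverse, with replicate 2 lowest for CCT-delta at 66.9 and highest for CCT-zeta at 193. These r values describe libraries that share their scaling factor and carry no test.

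The genes with the pattern most like the mean of the 3 subunits were sought over all genes kept, by Pearson's r of log2 values over the 12 libraries of a tissue. In abdomens the highest were LOC101891748 (r = 0.98), LOC101897099 (r = 0.98), LOC101887919 (r = 0.97), LOC101899256 (r = 0.97) and LOC101901576 (r = 0.97). Such likeness was common, since 1150 of 12534 genes had r over 0.9. In heads the highest were LOC101889932 (r = 0.94), LOC101895197 (r = 0.94), LOC101894574 (r = 0.94), LOC101893940 (r = 0.93) and LOC101895113 (r = 0.93), and 21 of 12234 genes had r over 0.9. LOC101897099 was also the highest in abdomens after group means were taken away (r = 0.96), with means of 9798 normalized counts in GFP females, 4366 in GFP males, 4502 in N and 5188 in SR. In heads the highest after that step was LOC101897409 (r = 0.99), with 1158 normalized counts in GFP females and 728 to 748.5 in the other groups. The tables used here give these identifiers no name.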

How the data were processed

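Poly(A) RNA of single fly heads and abdomens was made into stranded libraries from 1.5 µg of RNA (1.2 µg for GFP female head 1), per the labels' protocols. Tools named in the submitters' processing notes are DESeq2 1.16.1, HTSeq 0.9.1, HISAT2 and CASAVA 1.8, without their roles, and the genome build is not given in the sources used here. A table of 16540 genes per tissue was deposited, whose normalized counts are a signal of reads divided by a library's scaling factor, per the file headers, and whose log2 fold changes and adjusted p-values of 4 comparisons were used only where the authors' deposited table is named. Whole reads were recovered for 100% of values within a tolerance of 0.001.

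Values were taken as log2(normalized count + 1), which slightly understates changes of low genes, and genes were kept where 3 or more of a tissue's 12 libraries held 10 or more. Contrasts of 4 groups were fitted with limma 3.58.1 run in R 4.3.3, using a mean-dependent prior and no block, over all genes kept. The design had foreseen this unit. Alternatives were edgeR 4.0.16 and DESeq2 1.42.0 on recovered reads, TMM scaling, CPM, pseudocounts of 0.5 and 5, no filter, a replicate block, only the groups compared, and leaving out each fly. Scripts were tested on simulated data. The 3 members, the gene lists and the comparisons were chosen with earlier results of these data known. Named genes were the members, the symbols that start like known chaperones, listed markers, and the 5 genes per tissue most like the members' mean, before and after group means were taken away. Abdomens of SR and GFP male flies with the same number had correlated deviations from their group means (r of 0.18 to 0.46 in 3 pairs), from the data and not from the labels, and the replicate block called 0 subunits there too. No other contrast had every pair over 0.1. Precision is limited by 3 flies a group. At the lowest count, 247 reads, counting error alone is 6.36% of the value, and PCR copies were not marked, so reads are not independent molecules. Reads shared with near copies of these genes cannot be resolved from the tables. Sequences were not used here.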

Additional observations from a re-analysis of the deposited data

Results flagged for a closer look

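The response of abdomens to Md-tra RNAi had a called interaction with genotypic sex for 4 subunit values, by limma at the authors' scaling. By the sample titles these were CCT-eta at −0.98 log2 units (adjusted p = 0.00201) and CCT-zeta at −1.14 (adjusted p = 0.0042). By the authors' headers these were CCT-delta at −0.89 (adjusted p = 0.0256) and CCT-zeta at −1.05 (adjusted p = 0.00735). Called in this direction were 2 of 3 subunits under each reading, against 30.0% of all genes by the titles and 27.1% by the headers. Each value is GFP males minus GFP females, with N minus SR added by the titles or taken away by the headers. Every call thus contains the control sex difference, and the 4 calls are not separate results. No subunit was called for N minus SR, but equal levels are not shown. With the authors' scaling CCT-zeta was called under both readings, while CCT-delta by the titles (adjusted p = 0.0628) and CCT-eta by the headers (adjusted p = 0.0633) were not. With TMM scaling, CPM and edgeR, all 3 subunits were called under both readings. CCT-delta by the headers was not called with a block by library code number (adjusted p = 0.0631) or without GFP female 2, GFP female 3, GFP male 1 or SR 1.

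CCT-delta had sex differences of opposite sign in the 2 tissues. GFP females minus GFP males was 0.79 log2 units in abdomens, where every female lay above every male, as for 37.1% of genes tested. It was −0.33 in heads, where every female lay below every male, as for 26.2% of genes tested. The share of genes with both separations was not counted. The difference between tissues was not tested, since the tables were scaled separately, and the head value did not pass the adjusted threshold. In both tissues the sex with more CCT-delta was also the sex with the deeper libraries, and the part of depth was not tested.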

How the results depend on the processing

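In abdomens, all 3 subunits were called in each comparison with GFP females under every alternative run, the replicate block included, and none was called among the male groups under any. Of the 2 abdominal calls by the headers, 1 was left under the replicate block by library code number, and 1 to 3 when single flies were left out. In heads, 1 subunit was called between the control sexes with CPM and 1 with DESeq2, and 0 to 1 without single flies. The head interaction by titles gave 1 call with DESeq2 and 0 to 1 without single flies, and that by headers gave 1 without a filter, 1 with CPM and 1 with DESeq2. Over all alternatives for single subunits, 770 values kept their direction and side of the threshold, 21 gained a call, 5 lost it, and 47 changed sign without passing the threshold in either setting. No called value changed sign.

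The exact permutation test of the ratios used the between-group sum of squares of the log2 ratio as its statistic. Described here instead is the largest gap between group means, in log2 units. With the GFP groups alone, which cannot go below p = 0.1 by the exact permutation test, it was 0.36 for CCT-zeta to CCT-eta in abdomens, and in heads 1.05 for CCT-zeta to CCT-delta and 0.46 for CCT-eta to CCT-delta. Without single replicate numbers it was 0.43 to 0.60, 0.82 to 1.22 and 0.40 to 0.55 in that order, and 0.41 to 0.83 for CCT-zeta to CCT-eta in heads.

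Counts over all genes moved more: SR minus GFP males in abdomens gave 20 genes by limma, 2 by edgeR and 268 by DESeq2. N minus GFP males gave 1113, 432 and 2250 there, and N minus SR 1832, 1072 and 2885. In heads the same tools gave 111, 63 and 611 for N minus GFP females, 20, 9 and 871 for SR minus GFP females, 550, 502 and 2029 for SR minus GFP males, 1429, 1263 and 2719 for N minus GFP males, 37, 21 and 203 for N minus SR, 296, 277 and 1299 for the interaction by titles and 1362, 1139 and 2904 by headers. Without single flies, the limma count for N minus GFP males ran from 14 to 1366 in abdomens, that for N minus SR from 518 to 2091 there, and in heads that between control sexes from 572 to 3891, that for N minus GFP males from 102 to 1447 and that for the interaction by headers from 6 to 2624, so the shares of genes called in the report move with single flies. The cause was not tested.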

Other observations

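In the authors' deposited table, the head log2 fold changes under the header that sets sex-reversed males against GFP females were 0.20, −0.17 and −0.38 for CCT-delta, CCT-eta and CCT-zeta. The log2 ratios of the group means were 0.31, −0.02 and −0.12 with all 3 SR heads, and 0.20, −0.17 and −0.38 with SR heads 1 and 3 alone. The values without SR head 2, the library that stood apart, were within 0.000904 of the deposited ones for each subunit, against gaps of 0.111 to 0.265 with it.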
